A study of Homo sapiens with 9 samples.

Results

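S100A4, S100A6, S100A8, S100A9, S100A10, S100A11, ANXA1 and ANXA2 are the S100 and annexin genes described here, chosen by gene name from the deposited gene table of MV4-11 cells. They are 8 of 60612 rows, and all 8 were among the 12586 genes that passed the filter on low values. MV4-11 is a human acute myeloid leukaemia line with monocytic features that carries an MLL fusion, and RNA was sequenced in 9 libraries at 72 h. The values are taken as FPKM, fragments scaled to transcript length and library size. Levels of different genes can be set beside each other only roughly, as libraries still differed by transcript length. Against KO1 libraries, S100A8, S100A9, S100A10, ANXA1 and ANXA2 were higher in NC1 and in NCO libraries, with ratios of group means between 1.41 and 3.07. S100A4 and S100A6 were lower in NCO libraries than in KO1 libraries, with ratios of 0.719 and 0.827, and S100A11 was highest in NC1. The S100A6 difference was no longer called under quantile normalization or with each library's trend on transcript length removed.

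S100 proteins are small calcium-binding proteins of the EF-hand type that act mostly as dimers, inside cells and, after release, on cell surface receptors. Annexins are a separate family that binds acidic membrane phospholipids when calcium is present, and several annexins hold an S100 dimer at the membrane. In myeloid cells S100A8 and S100A9 together form calprotectin, a main cytosolic protein of neutrophils and monocytes, while S100A10 joins ANXA2 in a complex at the cell surface that binds plasminogen.

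The 3 title stems hold 3 libraries each. By their characteristics, NCO libraries are CD36 knockdown cells with decitabine, NC1 libraries are wild-type cells with decitabine and KO1 libraries are wild-type cells with vehicle. Decitabine is a cytosine analogue that traps DNA methyltransferases. The dose, the knockdown method and the number of clones are not given in the sources used here. The stem KO1 reads like a knockout although its libraries carry the untreated wild-type label, so the groups are called by their stems. CD36, the targeted gene (chr7:80369575-80679277, GRCh38), was at 2.31, 2.27 and 2.88 FPKM in NCO, 2.23, 1.78 and 2.52 in NC1 and 0.134, 0.144 and 0.0997 in KO1. It was thus not lower under the knockdown label than in NC1 (log2 difference 0.14, 95% interval -0.11 to 0.38, limma adjusted p = 0.436). CD36 was lowest in KO1, the stem labelled wild type with vehicle. The ratio of means of NC1 to KO1 was 17.3 (log2 difference 1.49, limma adjusted p = 1.43e-06). The match of labels to cells was not tested, and what follows holds between stems only. Nothing in the labels says that replicates are separate cultures, and p-values then measure the spread between these libraries, which may be technical. FPKM sums per library lay between 493061 and 530097, and read depth is unknown. Mitochondrial genes took 17.4% to 18.5% of the sum in NCO, 14.5% to 17.6% in NC1 and 14.5% to 15.3% in KO1. Within NC1 the share was 17.6% and 17.3% in replicates 1 and 2 but 14.5% in replicate 3.

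Start-site sequence from RefSeq (GRCh38.p14) was found for all 8 genes, as windows of 300 bases, 250 before and 50 after the start. Windows of the 5 genes that were higher in NC1 and NCO than in KO1 are printed, a choice made on that outcome. The labelled drug acts on cytosine methylation, and a link between it and these windows was not tested. Capitals mark CG, the site of DNA methylation, and TATAAA, the core letters of a TATA box. The windows lie at chr1:153391024-153391323 (minus strand) for S100A8, chr1:153357604-153357903 (plus) for S100A9, chr1:151993810-151994109 (minus) for S100A10, chr15:60397937-60398236 (minus) for ANXA2 and chr9:73151615-73151914 (plus) for ANXA1.
S100A8: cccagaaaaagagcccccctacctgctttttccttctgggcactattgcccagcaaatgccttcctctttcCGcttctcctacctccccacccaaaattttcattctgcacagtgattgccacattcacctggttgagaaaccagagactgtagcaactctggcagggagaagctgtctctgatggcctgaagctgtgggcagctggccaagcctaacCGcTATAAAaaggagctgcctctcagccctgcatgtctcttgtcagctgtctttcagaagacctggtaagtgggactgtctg
S100A9: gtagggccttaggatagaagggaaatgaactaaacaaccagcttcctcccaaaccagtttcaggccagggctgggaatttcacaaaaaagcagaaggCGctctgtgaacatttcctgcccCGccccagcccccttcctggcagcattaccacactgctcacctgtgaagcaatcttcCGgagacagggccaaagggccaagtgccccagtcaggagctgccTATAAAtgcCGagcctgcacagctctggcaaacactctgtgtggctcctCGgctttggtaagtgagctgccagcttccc
S100A10: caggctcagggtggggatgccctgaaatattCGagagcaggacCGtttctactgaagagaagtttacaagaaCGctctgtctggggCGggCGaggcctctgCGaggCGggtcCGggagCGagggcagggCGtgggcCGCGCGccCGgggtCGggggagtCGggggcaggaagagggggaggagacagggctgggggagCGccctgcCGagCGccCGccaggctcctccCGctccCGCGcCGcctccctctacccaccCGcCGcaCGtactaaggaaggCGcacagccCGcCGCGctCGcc
ANXA2: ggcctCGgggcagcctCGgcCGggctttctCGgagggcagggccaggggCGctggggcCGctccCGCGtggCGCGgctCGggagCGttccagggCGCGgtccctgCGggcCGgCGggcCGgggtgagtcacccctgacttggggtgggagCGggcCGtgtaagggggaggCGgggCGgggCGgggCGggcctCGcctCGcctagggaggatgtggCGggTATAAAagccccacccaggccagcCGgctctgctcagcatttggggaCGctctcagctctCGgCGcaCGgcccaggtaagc
ANXA1: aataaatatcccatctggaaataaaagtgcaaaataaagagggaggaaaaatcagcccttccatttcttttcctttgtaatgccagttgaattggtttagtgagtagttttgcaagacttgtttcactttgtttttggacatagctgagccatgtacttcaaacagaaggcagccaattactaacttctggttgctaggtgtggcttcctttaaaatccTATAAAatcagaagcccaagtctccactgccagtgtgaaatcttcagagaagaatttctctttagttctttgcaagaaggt

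These 5 windows range from none to many CG pairs. CG occurred 0 times in ANXA1, 2 times in S100A8, 5 in S100A9 and 32 times in each of S100A10 and ANXA2, against a median of 14 (quartiles 4 and 28) over 35116 RefSeq windows of the same length. The 3 windows not printed held 8 in S100A4, 31 in S100A6 and 22 in S100A11. TATAAA was searched on both strands. It stood on the gene's strand in 5 of 8 windows, beginning 29 bases before the start in S100A8 and S100A9 and 31 bases before it in S100A4, ANXA1 and ANXA2. It was present on the gene's strand in 7.33% and on either strand in 11.5% of all windows. No DNA methylation values were analysed here, and the windows are given as a description. For S100A6, S100A4, ANXA2 and S100A11 the RefSeq start lies 253, 4330, 4897 and 10903 bases from the start of the row in the deposited table, so other start sites may be in use. S100A8 has 3 RefSeq windows, of which the one at the start of its row is shown.

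All 8 genes were well expressed. S100A6 had the highest mean over the 9 libraries, at rank 133 of 12586, followed by S100A4 at 146, S100A11 at 160, S100A9 at 196, S100A10 at 328, ANXA2 at 678, S100A8 at 1179 and ANXA1 at 2431. Summed over the 8 genes they made up 0.400% to 0.423% of the FPKM sum in NCO, 0.474% to 0.531% in NC1 and 0.398% to 0.407% in KO1. The 6 S100 genes lie on chromosome 1, where S100A8, S100A6 and S100A4 start 32.2, 177 and 186 kb after the start of S100A9, and S100A10 and S100A11 lie 1.37 and 1.33 Mb before it.

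**Figure D1:**
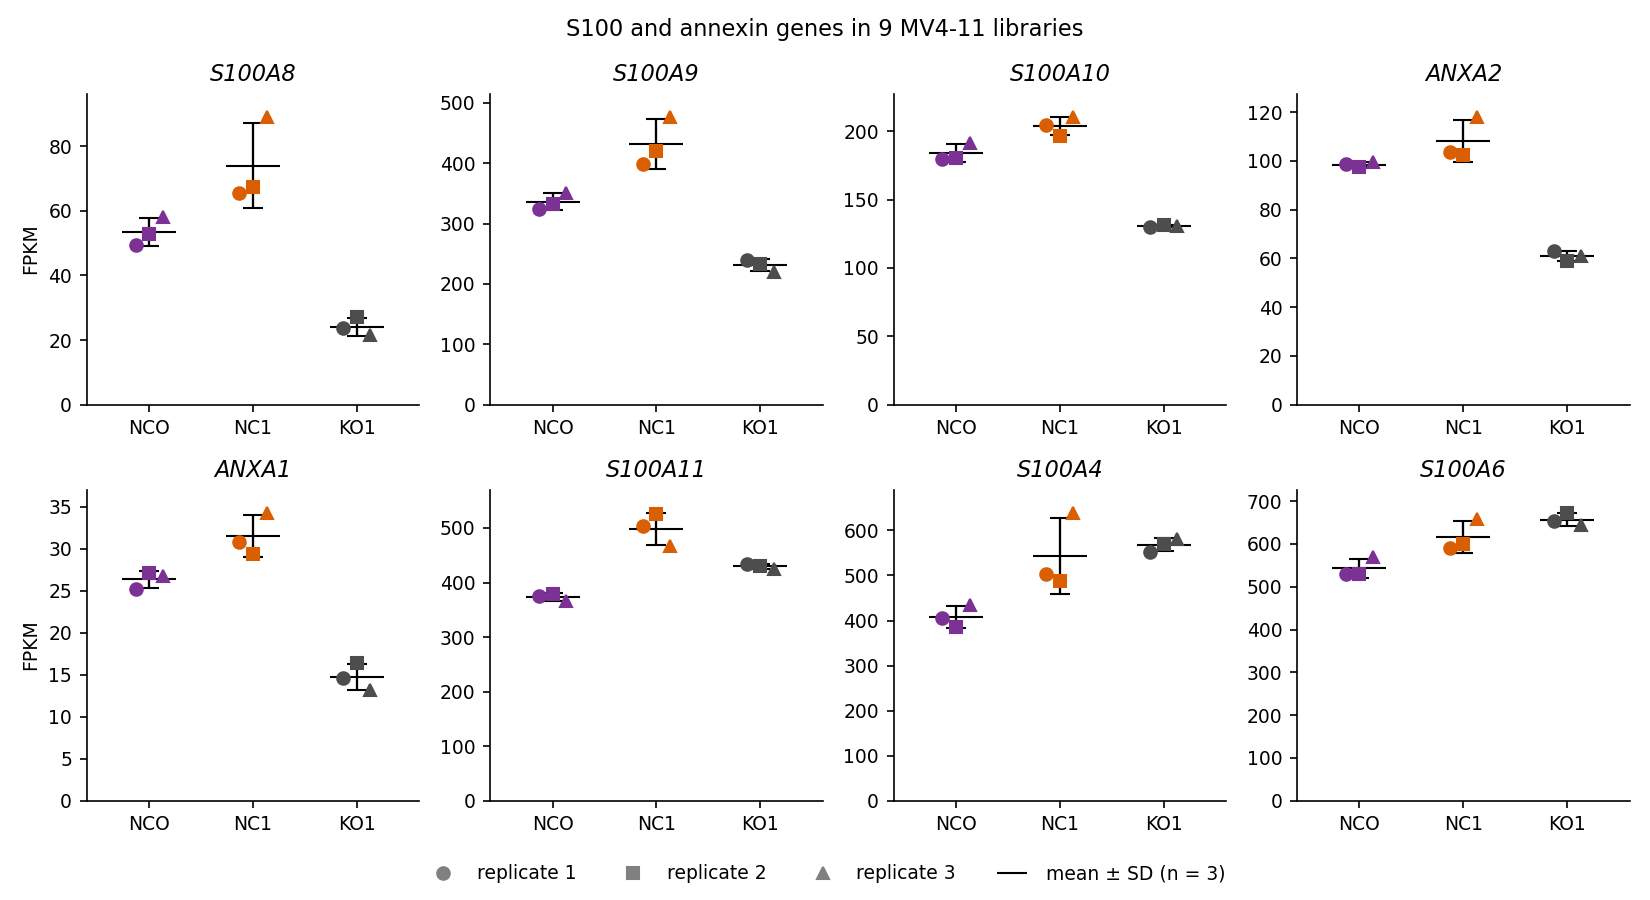
FPKM (linear axis from 0) of the 8 genes in each library, with the mean and SD of the 3 libraries of each stem. S100A8, S100A9, S100A10, ANXA2 and ANXA1 are lowest in KO1, S100A11 is highest in NC1, and S100A4 and S100A6 are lowest in NCO.

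The 3 comparisons share libraries, so their values are only set side by side. In NC1 against KO1, which by the labels asks for the effect of decitabine on wild-type cells, 6 of the 8 genes were higher, 0 lower and 2 not called at an adjusted p under 0.05. Over all genes tested, 47.2% were called (28.9% higher and 18.3% lower). The median log2 fold change of the 8 genes was 0.73, against 0.06 over all genes tested. Libraries of NC1 and KO1 did not overlap for 6 of the 8 genes, all higher in NC1, against 56.5% of all genes (34.5% higher). In NCO against NC1, which by the labels asks for the effect of CD36 knockdown under the drug, 0 of the 8 were higher, 6 lower and 2 not called, against 14.7% of all genes called (6.12% higher and 8.62% lower). Their median was -0.30, against 0.01. All 8 genes were lower in every NCO library than in every NC1 library, against 16.8% of all genes, and the reverse held for 17.5%. In NCO against KO1, 5 were higher, 3 lower and none was left uncalled, against 52.2% of all genes called (32.1% higher and 20.1% lower). Their median was 0.51, against 0.08. Groups did not overlap for any of the 8 there, 5 of them higher in NCO, against 61.2% of all genes (37.2% higher).

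**Figure D2:**
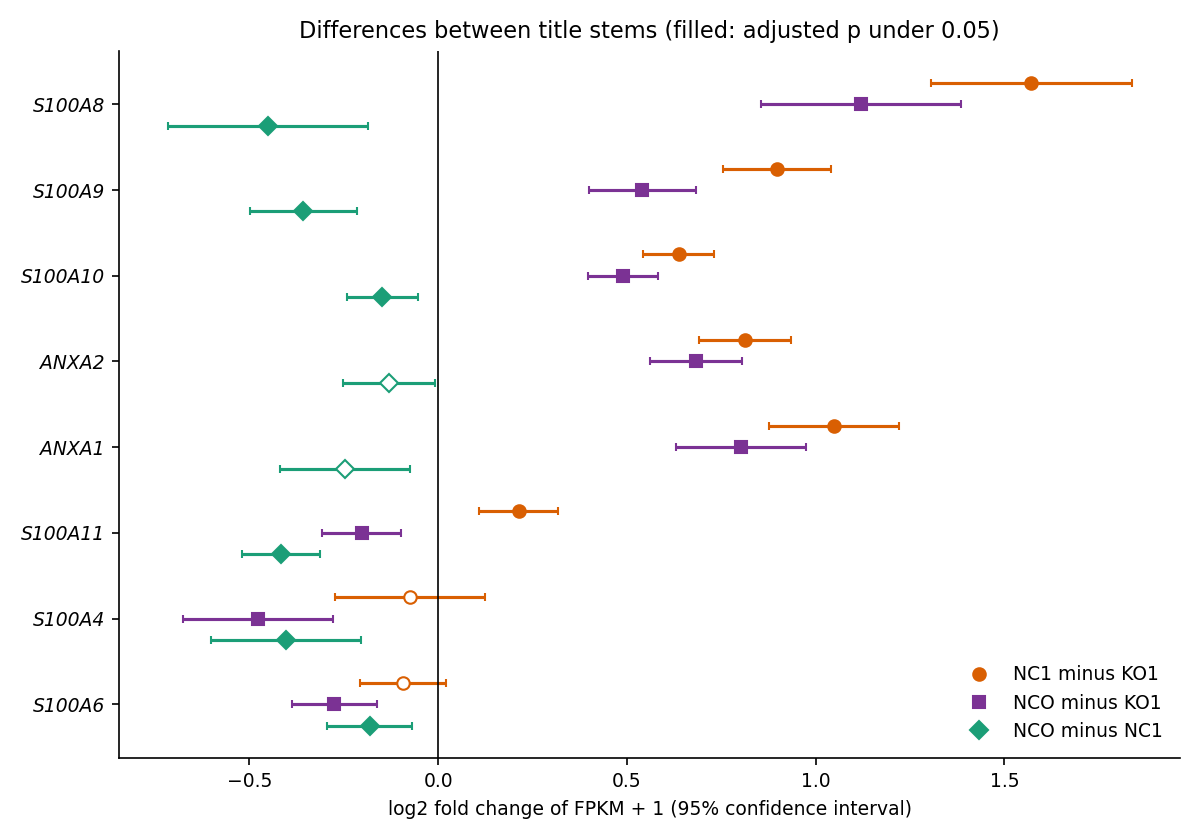
Log2 fold change of FPKM + 1 of the 8 genes (x axis) with its 95% confidence interval in the 3 comparisons, filled where the adjusted p was under 0.05. S100A8 shows the largest differences against KO1, 1.57 for NC1 and 1.12 for NCO, and every NCO minus NC1 value lies below 0.

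S100A8 and S100A9 were higher in NC1 and NCO than in KO1, and S100A8 by more. S100A8 (ENSG00000143546, chr1:153390032-153391073, GRCh38, minus strand), the smaller subunit of calprotectin, was at 49.3, 52.8 and 58.1 FPKM in NCO, 65.4, 67.3 and 89.2 in NC1 and 23.6, 27.1 and 21.5 in KO1. Libraries of the 3 stems did not overlap, in the order NC1, NCO, KO1. The means were 53.4 ± 4.42, 74.0 ± 13.2 and 24.1 ± 2.79 FPKM in NCO, NC1 and KO1 (SD, n = 3). On the log2 scale S100A8 was 1.57 higher in NC1 than in KO1 (95% interval 1.31 to 1.84, limma with Benjamini-Hochberg adjusted p = 3.24e-06), a ratio of 3.07. It was 1.12 higher in NCO than in KO1 (0.85 to 1.39, limma adjusted p = 3.58e-05), a ratio of 2.22. Against NC1, S100A8 in NCO was at -0.45 (-0.72 to -0.19, limma adjusted p = 0.0325), a ratio of 0.722, and this call was lost in 7 of 20 alternative settings.

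S100A9 (ENSG00000163220, chr1:153357854-153361023, plus strand), the larger calprotectin subunit, was at 325, 333 and 351 FPKM in NCO, 398, 420.4 and 477 in NC1 and 239, 233 and 220.5 in KO1. The stems stood in the same order as for S100A8, again without overlap. The means were 336 ± 13.6 FPKM in NCO, 432 ± 40.8 in NC1 and 231 ± 9.64 in KO1 (SD, n = 3). The log2 differences were 0.90 for NC1 against KO1 (0.76 to 1.04, limma adjusted p = 1.05e-06), 0.54 for NCO against KO1 (0.40 to 0.68, limma adjusted p = 4.91e-05) and -0.36 for NCO against NC1 (-0.50 to -0.21, limma adjusted p = 0.00603). The ratios of means were 1.87, 1.46 and 0.779 in the same order, and the call of NCO against NC1 was lost in 2 of 20 alternative settings.

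The ratio of S100A8 to S100A9 transcripts was lowest in KO1, and protein was not analysed here. There were 0.152, 0.159 and 0.165 FPKM of S100A8 per FPKM of S100A9 in NCO, 0.164, 0.160 and 0.187 in NC1 and 0.0986, 0.116 and 0.0977 in KO1. NCO and NC1 overlapped, and KO1 lay below both. The log2 difference of the ratio was 0.71 for NC1 against KO1 and 0.61 for NCO against KO1, each with an exact two-sided permutation p of 0.1, the smallest that 3 against 3 allows. For NCO against NC1 it was -0.10 (exact permutation p = 0.3).

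S100A10 and ANXA2, partners at the membrane, were likewise higher in NC1 and NCO than in KO1, and NCO and NC1 lay close together. S100A10 (ENSG00000197747, chr1:151982915-151993859, minus strand), an S100 protein that does not need calcium to bind its partner, was at 179.8, 180.5 and 192 FPKM in NCO, 204, 197 and 210.5 in NC1 and 130.1, 131 and 131 in KO1. KO1 lay well below the other stems, and the NCO and NC1 libraries came near each other without overlap. The means were 184 ± 6.65 FPKM in NCO, 204 ± 6.91 in NC1 and 131 ± 0.647 in KO1 (SD, n = 3). NC1 exceeded KO1 by 0.64 (0.54 to 0.73, limma adjusted p = 5.69e-07) and NCO exceeded KO1 by 0.49 (0.40 to 0.58, limma adjusted p = 4.64e-06). NCO against NC1 gave -0.15 (-0.24 to -0.05, limma adjusted p = 0.0403), a call that was lost in 14 of 20 alternative settings.

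ANXA2 (ENSG00000182718, chr15:60347134-60402883, minus strand), which links membranes, actin and the S100A10 dimer, was at 98.7, 97.4 and 99.3 FPKM in NCO, 104, 103 and 118 in NC1 and 63.0, 59.1 and 60.9 in KO1. The order of the stems was that of S100A10. The means were 98.5 ± 0.994 FPKM in NCO, 108 ± 8.72 in NC1 and 61.0 ± 1.98 in KO1 (SD, n = 3). ANXA2 was higher by 0.81 in NC1 than in KO1 (0.69 to 0.94, limma adjusted p = 6.67e-07) and by 0.68 in NCO than in KO1 (0.56 to 0.80, limma adjusted p = 2.81e-06). Its difference between NCO and NC1, -0.13, did not pass the test (-0.25 to -0.01, limma adjusted p = 0.137).

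For the membrane pair the ratio was highest in KO1. The ratio of their FPKM was 1.82, 1.85 and 1.93 in NCO, 1.97, 1.92 and 1.78 in NC1 and 2.06, 2.22 and 2.15 in KO1. The log2 difference was -0.18 for NC1 against KO1 and -0.20 for NCO against KO1 (exact two-sided permutation p = 0.1 each, the smallest possible). It was -0.02 for NCO against NC1 (exact permutation p = 0.9), where the libraries overlapped. Over the calprotectin pair and this pair, 6 ratio comparisons were made and none can pass a threshold of 0.05 with 3 libraries a stem.

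**Figure D3:**
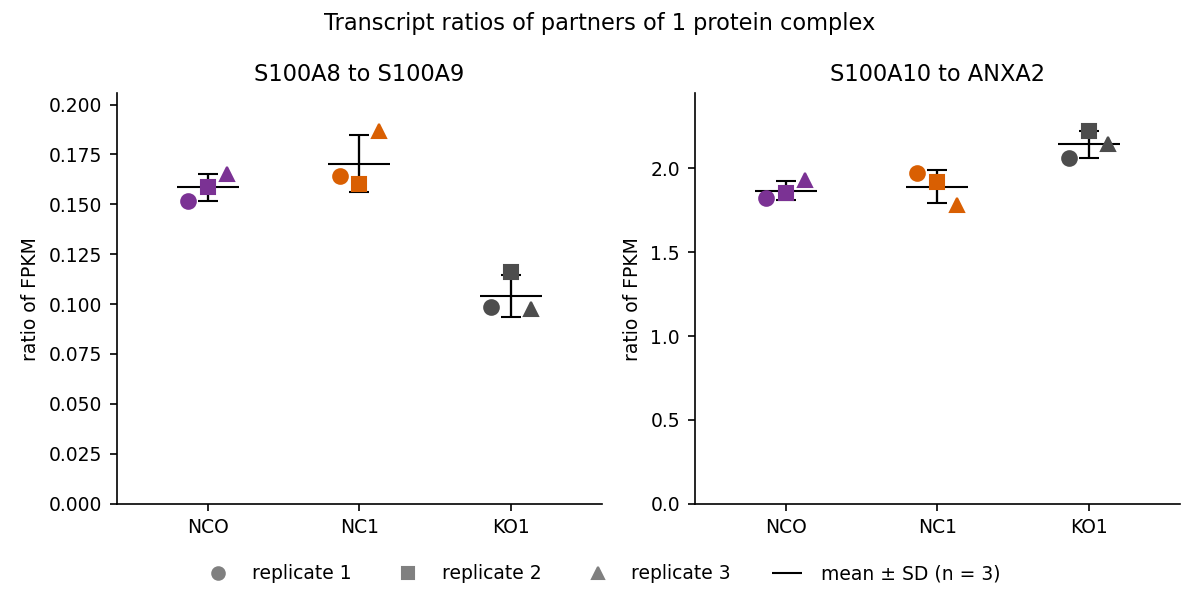
Ratio of the FPKM of the partners of each complex in every library (linear axis from 0) with the mean and SD of 3 libraries. S100A8 per S100A9 is lowest in KO1, at 0.0977 to 0.116, and S100A10 per ANXA2 is highest there, at 2.06 to 2.22.

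ANXA1 and its partner S100A11 did not move alike. ANXA1 (ENSG00000135046, chr9:73151865-73170393, plus strand), a glucocorticoid-induced annexin whose released form signals through formyl peptide receptors, was at 25.2, 27.1 and 26.8 FPKM in NCO, 30.8, 29.4 and 34.3 in NC1 and 14.6, 16.3 and 13.2 in KO1. The stems did not overlap, in the order NC1, NCO, KO1. The means were 26.3 ± 0.984 FPKM in NCO, 31.5 ± 2.52 in NC1 and 14.7 ± 1.57 in KO1 (SD, n = 3). ANXA1 was higher in NC1 than in KO1 by 1.05 (0.88 to 1.22, limma adjusted p = 1.40e-06), a ratio of 2.14, and higher in NCO than in KO1 by 0.80 (0.63 to 0.97, limma adjusted p = 1.11e-05). NCO against NC1 gave -0.25 (-0.42 to -0.07) and missed the threshold (limma adjusted p = 0.0579), which it passed in 6 of 20 alternative settings.

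S100A11 (ENSG00000163191, chr1:152032506-152047907, minus strand), a calcium-dependent partner of ANXA1, was at 375, 379.5 and 365 FPKM in NCO, 503, 526 and 467 in NC1 and 433, 430.0 and 425 in KO1. It was the only one of the 8 genes for which KO1 lay between the other stems, NC1 above and NCO below, with no overlap. The means were 373 ± 7.28 FPKM in NCO, 499 ± 29.6 in NC1 and 429.5 ± 4.23 in KO1 (SD, n = 3). The log2 differences were 0.21 for NC1 against KO1 (0.11 to 0.32, limma adjusted p = 0.00342), -0.42 for NCO against NC1 (-0.52 to -0.31, limma adjusted p = 0.000632) and -0.20 for NCO against KO1 (-0.31 to -0.10, limma adjusted p = 0.00415). The call of NCO against KO1 was lost when mitochondrial genes were left out before scaling (-0.06, limma adjusted p = 0.293) and under quantile normalization (-0.12, limma adjusted p = 0.0960). With each library's trend on transcript length removed, its sign turned (0.03, limma adjusted p = 0.703), so the place of KO1 above NCO depends on the processing. The call of NCO against NC1 was lost in 1 of 20 settings.

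S100A4 and S100A6, neighbours with 7.37 kb between their rows, were the genes that were not higher in NC1 than in KO1. S100A4 (ENSG00000196154, chr1:153543613-153550136, minus strand), also called metastasin, which binds non-muscle myosin, was at 405, 385 and 435 FPKM in NCO, 503, 487 and 639.7 in NC1 and 552, 570.4 and 581 in KO1. NC1 was spread widely and overlapped KO1, and NCO lay below both. The means were 408 ± 25.2 FPKM in NCO, 543 ± 84.0 in NC1 and 568 ± 14.5 in KO1 (SD, n = 3). NC1 against KO1 gave -0.07 (-0.27 to 0.12, limma adjusted p = 0.526), NCO against NC1 gave -0.40 (-0.60 to -0.20, limma adjusted p = 0.0164) and NCO against KO1 gave -0.48 (-0.68 to -0.28, limma adjusted p = 0.00130). The call of NCO against NC1 was lost in 5 of 20 alternative settings, and that of NCO against KO1 in none of them.

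S100A6 (ENSG00000197956, chr1:153534599-153536244, minus strand), called calcyclin, a partner of the adaptor CACYBP, was at 529, 531 and 568 FPKM in NCO, 589, 600.2 and 659 in NC1 and 653, 673 and 644 in KO1. As for S100A4, NC1 overlapped KO1 and NCO lay below both. The means were 543 ± 22.3 FPKM in NCO, 616 ± 37.3 in NC1 and 657 ± 15.2 in KO1 (SD, n = 3). NC1 against KO1 gave -0.09 (-0.21 to 0.02, limma adjusted p = 0.160), NCO against NC1 gave -0.18 (-0.30 to -0.07, limma adjusted p = 0.0386) and NCO against KO1 gave -0.27 (-0.39 to -0.16, limma adjusted p = 0.00109). The call of NCO against NC1 held in 7 of 20 alternative settings, and that of NCO against KO1 was lost under quantile normalization (-0.07, limma adjusted p = 0.236) and with the length trend removed (-0.06, limma adjusted p = 0.234).

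NC1 replicate 3, the library with the low mitochondrial share, was the highest NC1 library for 7 of the 8 genes and the lowest for S100A11. Without it, S100A4 and S100A6 were called lower in NC1 than in KO1, at -0.20 (limma adjusted p = 0.00987) and -0.14 (limma adjusted p = 0.0193), and the 6 genes called higher kept their call. S100A6 was also called lower there under trimmed-mean scaling, at -0.16 (limma adjusted p = 0.0324). Between NCO and NC1 without this library, 3 genes were called in place of 6. S100A6 at -0.13, S100A8 at -0.31 and S100A10 at -0.12 then missed the threshold (limma adjusted p of 0.0651, 0.0508 and 0.0738), while S100A4, S100A9 and S100A11 passed it.

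Other single libraries also decided calls between NCO and NC1. S100A8 missed it without KO1 replicate 1 (limma adjusted p = 0.0512), NCO replicate 1 (0.106) or NCO replicate 2 (0.0911), and S100A4 without NCO replicate 1 (0.0501) or NCO replicate 2 (0.0637). S100A6 missed it without KO1 replicate 1 (limma adjusted p = 0.0595), KO1 replicate 2 (0.0527), NC1 replicate 2 (0.0608), NCO replicate 1 (0.121) or NCO replicate 2 (0.125). S100A10 missed it without any of the 3 KO1 libraries (limma adjusted p of 0.0642, 0.0605 and 0.0543 without replicates 1, 2 and 3), NC1 replicate 1 (0.0926), NCO replicate 1 (0.126) or NCO replicate 2 (0.134). ANXA1 passed without KO1 replicate 2 (limma adjusted p = 0.0435) or KO1 replicate 3 (0.0415). S100A9 and S100A11 kept their call without each of the 9 libraries in turn.

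The lower values in NCO than in NC1 went together with transcript length over all genes, a relation looked for after the data had been seen. The APPRIS principal transcripts in GENCODE 29, a public annotation, measure 523 bases for S100A8, 577 for S100A9, 594 for S100A11, 600 for S100A4, 673 for S100A6, 1202 for S100A10, 1676 for ANXA2 and 2209 for ANXA1. Of 584 coding genes with principal transcripts up to 1000 bases, 44.2% were called lower in NCO than in NC1 and 0.171% higher, with a median of -0.23. From 1000 to 2000 bases (2276 genes) the median was -0.10, with 18.4% lower and 1.36% higher. For 4453 genes of 2000 to 4000 bases the median was 0.01. Above 4000 bases, among 3773 genes, the median was 0.10 and the calls were 1.54% lower against 12.4% higher. The 5 shortest S100 genes lie in the shortest class, and their values run from -0.45 to -0.18.

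The same measure separated single libraries by stem. The median deviation of the shortest class from each gene's mean, minus that of the longest class, was -0.25, -0.25 and -0.17 on the log2 scale in NCO, 0.06, 0.08 and 0.10 in NC1 and 0.16, 0.18 and 0.13 in KO1. With each library's trend on transcript length removed, none of the 8 genes was called in NCO against NC1. The values were then -0.19 for S100A8, -0.11 for S100A9, -0.01 for S100A10, -0.05 for ANXA2, -0.21 for ANXA1, -0.17 for S100A11, -0.16 for S100A4 and 0.04 for S100A6, the last with its sign turned (limma adjusted p between 0.0801 and 0.899). Over all genes 1150 of 11086 were still called.

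**Figure D4:**
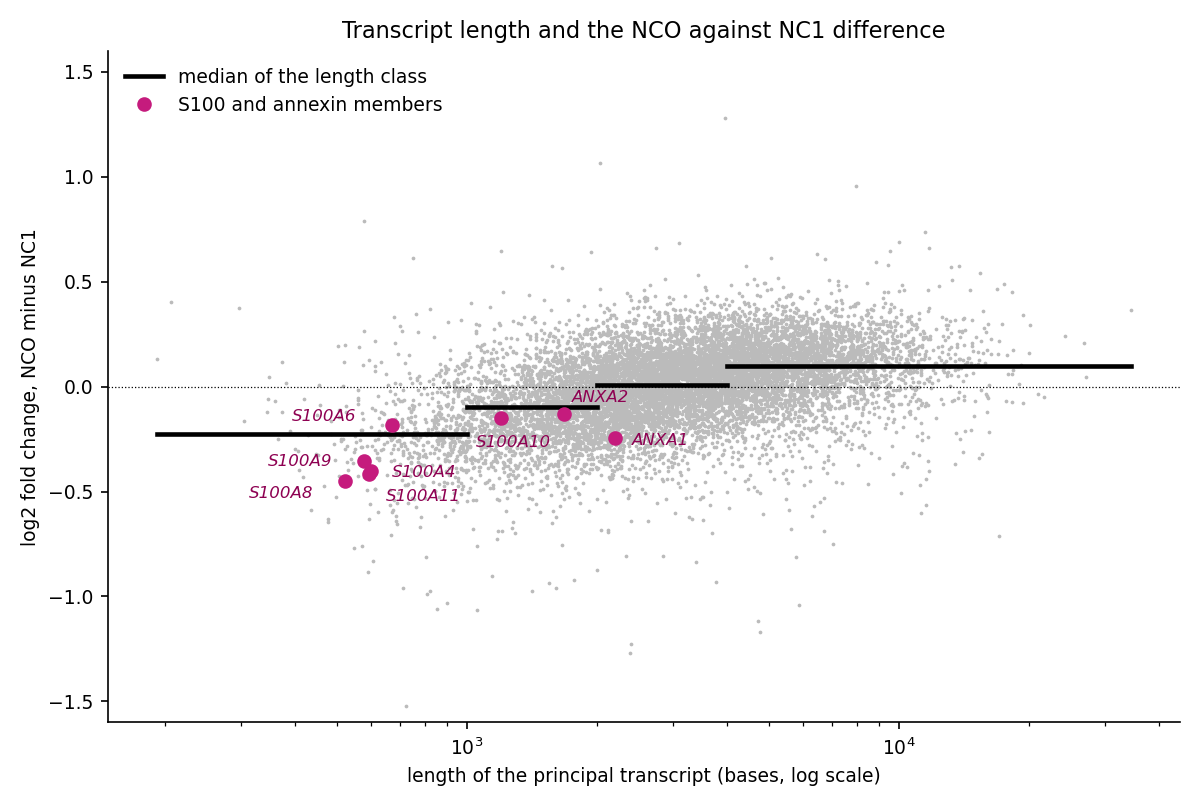
Log2 fold change of NCO minus NC1 (y axis) against the length of the principal transcript (x axis, log scale) for 11086 coding genes in grey, with the median of each length class as a black line and the 8 genes in colour. The medians run from -0.23 in the shortest class to 0.10 in the longest, and the 8 genes lie between -0.45 and -0.13. One gene lies outside the y axis.

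Against KO1 the higher values of the S100 and annexin genes stood without the length trend. In NC1 against KO1 the classes differed little, with medians between 0.02 and 0.11, and the same 6 genes were called higher with the trend removed. In NCO against KO1 the median ran from -0.18 in the shortest class to 0.20 in the longest, and 47.9% of the shortest class and 9.41% of the longest were called lower. With the trend removed, S100A8 was higher in NCO than in KO1 by 1.37, S100A9 by 0.78, S100A10 by 0.60, ANXA1 by 0.78 and ANXA2 by 0.71. S100A4 was still called lower, at -0.25 (limma adjusted p = 0.0141). S100A6, at -0.06 (limma adjusted p = 0.234), and S100A11, at 0.03 with its sign turned (limma adjusted p = 0.703), were not called.

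Across the 9 libraries the 8 genes formed like-moving groups, given here as a description. The log2 values of S100A8, S100A9, S100A10, ANXA1 and ANXA2 correlated with each other at a Pearson r of 0.962 to 0.993, and S100A4 with S100A6 at 0.957. S100A11 correlated with the other 7 at 0.124 to 0.552. Most of the spread lies between stems, and all pairs share the same libraries and their scaling. Among 7129 genes with a mean of at least 5 FPKM, those most like S100A8 were HSD11B1 (r = 0.992), GALM and STAC3, and those most like S100A9 were GSTM1 (r = 0.991), TUBB and ALDH1B1. S100A10 was most like CXCL10 (r = 0.996), BIN1 and IFI27. ANXA2 was most like ATF3 (r = 0.997), BTN3A1 and SQOR, and ANXA1 most like HSD11B1 (r = 0.992), POR and XAF1. S100A6 was most like COX5B (r = 0.993), COPS9 and RPL37A, S100A4 most like IFI27L1 (r = 0.978), NDUFAB1 and TMSB4X, and S100A11 most like RNASEH2C (r = 0.964), NUDT1 and CNPY3.

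Few other S100 genes were expressed. Of 15 others, 4 passed the filter and 5 were listed at 0 in all libraries (S100A7, S100A7A, S100A7L2, S100A14 and S100G). S100P, an S100 protein first found in placenta, was at 18.2, 20.9 and 16.8 FPKM in NCO, 25.1, 25.2 and 40.7 in NC1 and 14.5, 13.8 and 9.89 in KO1. It was higher in NC1 than in KO1 by 1.17 (0.71 to 1.63, limma adjusted p = 0.00163), and no library of NC1 overlapped another stem. S100A1, at 1.27 ± 0.334 FPKM in NCO, 2.55 ± 0.807 in NC1 and 1.32 ± 0.297 in KO1 (SD, n = 3), was called higher in NC1 than in KO1 and lower in NCO than in NC1, and the call of NCO against NC1 was lost with the length trend removed (-0.39, limma adjusted p = 0.159). S100A13, at 1.70 ± 0.321, 3.19 ± 0.144 and 3.26 ± 0.75 FPKM, was called lower in NCO than in either stem. S100A12, also called calgranulin C, was at 1.62 ± 0.906, 2.06 ± 0.664 and 1.32 ± 0.242 FPKM and was called in no comparison. In all, 2 of the 4 were higher and 0 lower in NC1 against KO1, 0 and 2 in NCO against NC1, and 0 and 1 in NCO against KO1, with medians of 0.49, -0.64 and 0.05. With the length trend removed, these counts were 2 and 0, 0 and 1, and 1 and 1, S100P being called higher in NCO than in KO1 (0.62, limma adjusted p = 0.0209). With the trend kept, all genes tested gave 28.9% higher and 18.3% lower in NC1 against KO1. They gave 6.12% and 8.62% in NCO against NC1, and 32.1% and 20.1% in NCO against KO1. S100A1 and S100A13 overlap on opposite strands, the strand setting of the counting is not given in the sources used here, and their reads may not be told apart.

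Most other annexins that passed the filter were higher in NC1 than in KO1. Of 11 others, 8 passed the filter and ANXA10 and ANXA13 were listed at 0. NC1 against KO1 gave 6 higher and 1 lower, with a median of 0.27. ANXA5, the phosphatidylserine binder used to stain dying cells, was at 96.4 ± 1.35 FPKM in NCO, 91.4 ± 2.55 in NC1 and 75.4 ± 1.42 in KO1 (SD, n = 3), 0.27 higher in NC1 than in KO1 (limma adjusted p = 0.000219). ANXA6, the largest protein of the family, was 0.32 higher (limma adjusted p = 0.000253), ANXA11 was 0.27 higher (limma adjusted p = 0.000283), and ANXA3, ANXA4 and ANXA7 were called higher too. ANXA8 went the other way, at 4.81 ± 0.173 FPKM in NCO, 4.38 ± 0.883 in NC1 and 8.71 ± 0.0953 in KO1, or -0.86 for NC1 against KO1 (limma adjusted p = 3.80e-05). Reads of ANXA8 may be split with its near-identical copy ANXA8L1, so both are uncertain. In NCO against KO1, 6 of the 8 were higher and 2 lower, with a median of 0.20. With the length trend removed this became 4 higher and 1 lower, as ANXA11 turned to -0.04 (limma adjusted p = 0.489) and ANXA6 (0.11, limma adjusted p = 0.0654) and ANXA8L1 (-0.24, limma adjusted p = 0.0562) missed the threshold. In NCO against NC1, 0 were higher and 1, ANXA6, was lower at -0.16 (limma adjusted p = 0.0454), with a median of -0.0037. All genes tested gave 28.9% higher and 18.3% lower in NC1 against KO1. They gave 32.1% and 20.1% in NCO against KO1, and 6.12% and 8.62% in NCO against NC1. The ANXA6 call was lost with the length trend removed (-0.15, limma adjusted p = 0.0582), where ANXA5 was instead called higher (0.15, limma adjusted p = 0.0486) and ANXA11 lower (-0.20, limma adjusted p = 0.0146).

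**Figure D5:**
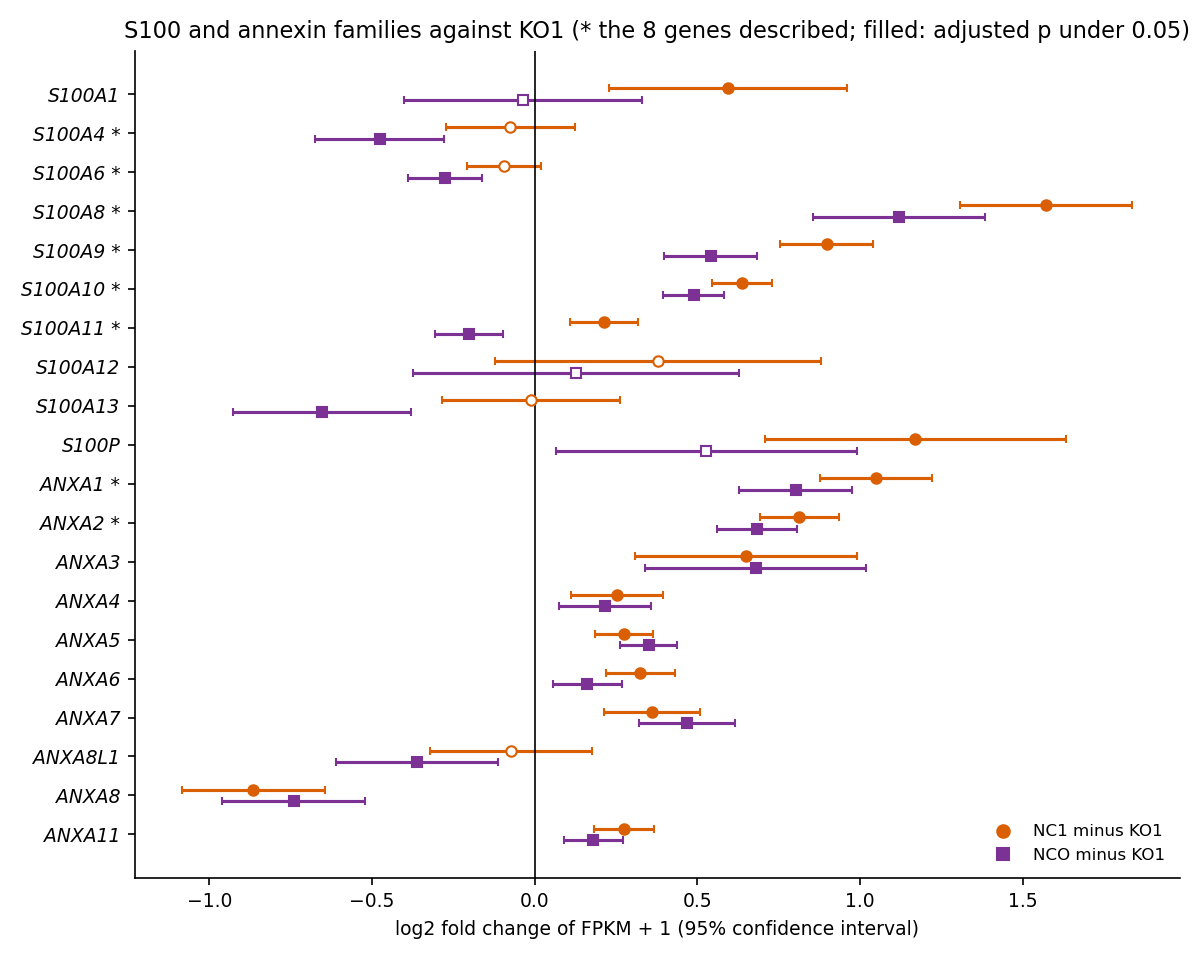
Log2 fold change against KO1 (x axis, 95% confidence interval) of every S100 and annexin gene that passed the filter, filled where the adjusted p was under 0.05, with an asterisk on the 8 genes described in full. Annexins other than ANXA8 and ANXA8L1 lie above 0 for both stems, ANXA11 in NCO only while the length trend is kept, and S100A8 lies farthest to the right.

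Receptors named for S100A8, S100A9 and S100A12 were in part expressed. Of 8 listed, 6 passed the filter, and 3 were higher and 0 lower in NC1 than in KO1, with a median of 0.23. BSG, or basigin, a receptor reported for S100A9, was at 385 ± 9.66 FPKM in NCO, 441 ± 23.4 in NC1 and 312 ± 3.33 in KO1 (SD, n = 3), 0.50 higher in NC1 than in KO1 (limma adjusted p = 7.09e-06). CD36, the gene targeted by the labels and reported to bind the complex loaded with fatty acid, was higher by 1.49 (limma adjusted p = 1.43e-06). Its ratio of means was 17.3, which the added 1 FPKM shrinks on the log2 scale. LY96, the co-receptor of TLR4, was higher by 0.73 at 1.65 ± 0.532 FPKM in NC1 and 0.590 ± 0.228 in KO1 (limma adjusted p = 0.00877). Between NCO and NC1, 0 were higher and 2 lower in NCO (LY96 and BSG), with a median of -0.17, and both calls were lost with the length trend removed (limma adjusted p of 0.0515 for LY96 and 0.0882 for BSG). In NCO against KO1, 2 were higher (CD36 and BSG) and 1 lower (AGER, the receptor called RAGE, at -0.32, limma adjusted p = 0.0254), with a median of 0.02. Over all genes tested, the calls were 28.9% higher and 18.3% lower in NC1 against KO1. They were 6.12% and 8.62% in NCO against NC1, and 32.1% and 20.1% in NCO against KO1. With the length trend removed, CD33, also on this list, was called higher in NCO than in NC1 (0.29, limma adjusted p = 0.00769). CD33 was then called higher in NCO than in KO1 too (0.21, limma adjusted p = 0.00577). TLR4 reached at most 0.835 FPKM and CD69 at most 0.0779, under the filter. The formyl peptide receptors through which ANXA1 acts were also under the filter, with at most 1.36 FPKM for FPR1, 0.996 for FPR2 and 0.0984 for FPR3.

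Genes of plasminogen activation around S100A10 and ANXA2 moved in both directions. Of 9 listed, 7 passed the filter, and 3 were higher and 2 lower in NC1 than in KO1, with a median of -0.02. PLAUR, the urokinase receptor, was at 68.2 ± 0.371 FPKM in NCO, 83.7 ± 5.35 in NC1 and 56.9 ± 1.49 in KO1 (SD, n = 3), 0.55 higher in NC1 than in KO1 (limma adjusted p = 7.01e-06), and CTSB, a lysosomal protease, was 0.20 higher (limma adjusted p = 0.0251), a call lost with the length trend removed (0.12, limma adjusted p = 0.162). ENO1, a glycolytic enzyme that binds plasminogen at the cell surface, was at 1026 ± 4.62, 1074 ± 14.5 and 1584 ± 23.6 FPKM in the same order and SERPINB2, an inhibitor of plasminogen activators, at 0.957 ± 0.109, 0.784 ± 0.127 and 2.12 ± 0.486 FPKM. In NC1 against KO1 both were lower, ENO1 at -0.56 (limma adjusted p = 5.36e-07) and SERPINB2 at -0.80 (limma adjusted p = 0.000343). In NCO against KO1, 2 were higher and 2 lower (median -0.09), and in NCO against NC1, 0 were higher and 1, PLAUR, was lower at -0.29 (limma adjusted p = 0.00483), with a median of -0.07. Among all genes tested, 28.9% were higher and 18.3% lower in NC1 against KO1. The shares were 32.1% and 20.1% in NCO against KO1, and 6.12% and 8.62% in NCO against NC1. PLG, plasminogen itself, was listed at 0 in every library.

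Of 16 intracellular binding partners of S100 proteins and annexins, 14 passed the filter, and 6 were higher and 3 lower in NC1 than in KO1, with a median of 0.14. HLTF, a chromatin remodeller, was 0.56 higher (limma adjusted p = 0.000687) and CACYBP, the S100A6 partner, was 0.25 higher (limma adjusted p = 0.0126). NCL, the nucleolar protein nucleolin, was at -0.25 (limma adjusted p = 0.000886). AHNAK, a giant scaffold protein that holds the S100A10 and ANXA2 complex, was at 52.9 ± 2.47 FPKM in NCO, 39.9 ± 1.94 in NC1 and 46.6 ± 1.69 in KO1 (SD, n = 3). It was the only one of the 14 called in NCO against NC1, where it was higher by 0.40 (limma adjusted p = 0.00161), with a list median of 0.05. Among coding genes with principal transcripts above 4000 bases, 12.4% were called higher there. The annotated principal transcript of AHNAK measures 1024 bases, short for a giant protein. Its value with the length trend removed (0.56, limma adjusted p = 4.42e-05) therefore cannot show whether the call depends on length. In NCO against KO1, 6 of the 14 were higher and 2 lower, with a median of 0.13. All genes tested gave 28.9% higher and 18.3% lower in NC1 against KO1. They gave 6.12% and 8.62% in NCO against NC1, and 32.1% and 20.1% in NCO against KO1. MYH9, the myosin that S100A4 binds, was at 128 ± 5.36, 117 ± 6.49 and 120.4 ± 4.73 FPKM in NCO, NC1 and KO1 and was called in no comparison. With the length trend removed, NC1 against KO1 gave 5 higher and 6 lower in this list, and MYH9 was called lower there (-0.15, limma adjusted p = 0.0400).

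Around the S100 genes of chromosome 1 from S100A9 onward, none of the 8 tested neighbours other than S100 genes was called higher in any comparison. In a window of 774 kb from 250 kb before S100A9 to 250 kb beyond the last S100 gene, 15 of 50 rows passed the filter and 28 were listed at 0. S100A10 and S100A11 lie before this window, and their neighbours were not examined. Over all genes tested, 28.9% were called higher and 18.3% lower in NC1 against KO1. The shares were 6.12% and 8.62% in NCO against NC1 and 32.1% and 20.1% in NCO against KO1. Of the 7 S100 genes among the 15, 3 were higher and 0 lower in NC1 than in KO1, and of the other 8 genes 0 were higher and 3 lower. INTS3, a subunit of the Integrator complex, was at 7.82 ± 0.846 FPKM in NCO, 7.54 ± 0.143 in NC1 and 12.6 ± 0.417 in KO1 (SD, n = 3), -0.67 for NC1 against KO1, and SLC27A3, a fatty acid transporter family member, was at -0.66. In NCO against NC1, 6 of the 7 S100 genes and 2 of the other 8 were lower and 0 higher, and in NCO against KO1 the S100 genes gave 2 higher and 3 lower and the others 0 higher and 6 lower. With the length trend removed, 1 of the 7 S100 genes (S100A13) and none of 6 others with a transcript length were called in NCO against NC1. Rows that could share reads with the 8 genes were near 0. Processed copies, 5 rows in all, reached at most 0.461 FPKM (ANXA2P2), and S100A3, which overlaps S100A4 on the same strand, reached at most 0.432.

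Some markers of monocytes were higher where S100A8 and S100A9 were. Of 10 listed, 7 passed the filter. Their summed level was 343 to 352 FPKM in NCO, 406 to 422 in NC1 and 199 to 208 in KO1. Without CD68, the most abundant of them, it was 149 to 155 FPKM in NCO, 163 to 183 in NC1 and 127 to 132 in KO1. In NC1 against KO1, 5 were higher and 0 lower, with a median of 0.40. CD68, a lysosomal protein of macrophages, was at 196 ± 1.57 FPKM in NCO, 240.3 ± 15.1 in NC1 and 72.1 ± 3.33 in KO1 (SD, n = 3), 1.72 higher in NC1 than in KO1 (limma adjusted p = 8.16e-10). CSF1R, the receptor of macrophage colony-stimulating factor, was 0.86 higher (limma adjusted p = 9.22e-07), while CD14, at -0.03 (limma adjusted p = 0.850), and FCGR1A, an Fc receptor, at 0.03 (limma adjusted p = 0.675), were not called. NCO against NC1 gave 0 higher and 3 lower (median -0.23), and in NCO against KO1, 5 were higher and 1, FCGR1A, was lower at -0.20 (limma adjusted p = 0.00892), with a median of 0.37. These counts were the same with the length trend removed. With the trend kept, 28.9% of all genes tested were higher and 18.3% lower in NC1 against KO1. The shares were 6.12% and 8.62% in NCO against NC1, and 32.1% and 20.1% in NCO against KO1. In bulk RNA a different share of cells of a type and a different amount of RNA per cell cannot be told apart.

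Neutrophil and granule genes were a further myeloid list. Of 10 listed, 6 passed the filter, and CEACAM8 and LCN2 were listed at 0. Their summed level was 1239 to 1342 FPKM in NCO, 1558 to 1690.0 in NC1 and 1213 to 1267 in KO1. In NC1 against KO1, 2 were higher and 0 lower with a median of 0.05, namely the granule protease PRTN3 at 0.98 (limma adjusted p = 3.17e-07) and AZU1, an inactive relative, at 0.47 (limma adjusted p = 1.32e-05). Against NC1, 0 were higher and 3 lower in NCO (median -0.27), and in NCO against KO1, 1 was higher and 2 lower (median 0.03). All genes tested gave 28.9% higher and 18.3% lower in NC1 against KO1. They gave 6.12% and 8.62% in NCO against NC1, and 32.1% and 20.1% in NCO against KO1. With the length trend removed, none of the 3 calls of NCO against NC1 was left (AZU1 at -0.17, PRTN3 at -0.18 and ELANE at -0.04, limma adjusted p of 0.0508, 0.101 and 0.707), and ELANE, called lower in NCO than in KO1, was lost there too (-0.02, limma adjusted p = 0.749). NC1 against KO1 then gave 2 higher and 2 lower, as CAMP (-0.51, limma adjusted p = 0.0383) and CSF3R (-0.15, limma adjusted p = 0.00922) were called lower. NCO against KO1 then gave 2 higher and 2 lower, with AZU1 gained as higher (0.28, limma adjusted p = 0.000614) and CSF3R as lower (-0.17, limma adjusted p = 0.00454).

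Genes that mark other lineages lay mostly at or near 0. None of 12 erythroid and megakaryocytic markers passed the filter, 7 were listed at 0 and the list summed to at most 1.73 FPKM. Of 11 lymphoid markers 3 passed (2 higher and 1 lower in NC1 than in KO1), the T cell receptor chains CD3D, CD3E and CD3G were listed at 0, and the sums were 62.6 to 63.9 FPKM in NCO, 73.1 to 82.4 in NC1 and 66.0 to 70.5 in KO1. Of 12 stromal and epithelial markers 4 passed (3 higher and 0 lower in NC1 than in KO1), KRT19 was listed at 0, and the sums were 28.9 to 32.1 FPKM in NCO, 30.9 to 32.3 in NC1 and 24.0 to 24.98 in KO1. Over all genes tested, 28.9% were higher and 18.3% lower in NC1 than in KO1. The part of these lists in the S100 and annexin results was not tested.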

How the data were processed

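RNA of 9 MV4-11 libraries (3 title stems, 3 libraries each, 72 h) was extracted with Trizol and made into Illumina TruSeq libraries, per the labels. The authors deposited 1 value per gene and library, taken here as FPKM because the values are not whole, their sums differ between libraries and the submitters' processing notes name StringTie, and the header names no unit. Those notes also name CASAVA 1.8, Trimmomatic, FastQC, HISAT2 and the build GRCh38, with no role or order. Read counts were not analysed here, so depth, counting intervals and detection limits are not given.

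Values were tested as log2(FPKM + 1), a scale that understates changes of low genes, in limma 3.58.1 (R 4.3.3, trend and robust) with all 9 libraries and 1 mean per stem. The 12586 genes with at least 1 FPKM in at least 3 libraries entered, and 48026 were left out. P-values are two-sided and adjusted by Benjamini-Hochberg over all genes tested, with calls under 0.05. Ratios between partner genes were compared with exact two-sided permutation tests. The method was tested on simulated data with independent noise for each gene. Those data held no length trend or scaling difference between stems, so they cannot bear on calls that depend on these. Every member was named in every comparison, of each other list up to 4 called genes with the smallest adjusted p, CD36, the 3 genes most correlated with each member, tested genes of the chromosome 1 window, and processed copies of members. A few genes that were not called (TLR4, CD69, the formyl peptide receptors, PLG, CD14, MYH9, S100A12) were named after their values were seen. CD33 and CSF3R, called only with the length trend removed, were also named after their values were seen. The members and lists were chosen with earlier results of these data known. Promoter windows were searched in Python 3.11.15. Alternatives covered the pseudocount, the filter, scaling, a replicate block, each left-out library and, chosen after seeing the data, removal of a trend on transcript length. Single values of some listed genes are not reported here.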

Additional observations from a re-analysis of the deposited data

How the results depend on the processing

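Over the 8 genes and 3 comparisons, 20 alternative settings each gave 480 values, of which 424 kept direction and side of the threshold, 45 lost their call, 9 gained one and 2 changed sign. S100A8, S100A9, S100A10, ANXA1 and ANXA2 were called higher in NC1 and in NCO than in KO1 under all 20. The weak comparison was NCO against NC1, where 6 members and 1855 genes were called. Only 781 genes and 2 members were called with no filter beyond 1 library above 0, 1 member under quantile normalization, and 1150 genes and 0 members with the length trend removed, which also turned S100A6 to 0.044 there and S100A11 in NCO against KO1 to 0.029. With single libraries left out, 908 to 1708 genes and 2 to 6 members were called. Without NC1 replicate 2, NCO replicate 1 or NCO replicate 2 the genes called were 1076, 1055 and 908, and without NC1 replicate 3 or KO1 replicate 1 there were 3 members. The log2 ratio of S100A10 to ANXA2 between NCO and NC1 ranged from -0.059 to 0.015. Except in these, counts of genes and members stayed within 1.5 times those reported.

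Replicate numbers did not pair the libraries: deviations of same-numbered libraries correlated at -0.10 to 0.08 (9 pairs), others at -0.07 to 0.11 (18 pairs). With the replicate block, NCO against NC1 gave 1389 genes and 4 members, S100A6 (limma adjusted p = 0.0517) and S100A10 (0.0618) being lost, and NC1 against KO1 gave 5618 genes and 6 members. Scaling moved the split of calls. Of genes called in NC1 against KO1, 61.3% were higher as reported, 50.7% under trimmed-mean scaling, 47.7% under quantile normalization and 72.4% with mitochondrial genes removed. For NCO against NC1 these shares were 41.5%, 39.0%, 53.7% and 69.4%, and for NCO against KO1 61.5%, 50.3%, 50.3% and 78.3%. Mitochondrial removal put the median of all genes in NCO against KO1 at 0.20, against 0.08. The causes were not tested. FPKM without counts hides the depth behind each value, and 3 libraries a stem leave ratio tests no p under 0.1.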
